A study of Mus musculus with 18 samples.

Results

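The TRIM family genes described here were the rows of the deposited gene table whose symbol began with Trim followed by a digit and whose counts summed to at least 50 over the 18 libraries. Of 34745 genes in the table, 68 had such a symbol and 45 of these met the minimum. Among the 23 left out, 10 had 0 counts in every library and Trim17, with 49 counts in all, lay just outside, while Trim9 (75 counts) and Trim66 (97 counts) lay just inside. A filter on low counts left 43 of the 45 members to be tested, and the pair that failed it were Trim9 and Trim66. Mid1, Mid2, Pml and Mefv belong to the same protein family under other symbols. They were not members by this rule and are given only where they stand beside their relatives.

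TRIM proteins carry a RING finger, B-box domains and a coiled coil, and many act as E3 ubiquitin ligases, the enzymes that choose which protein is tagged with ubiquitin. They are sorted into classes by what follows the coiled coil, such as the PRY-SPRY domain of the largest class, which binds target proteins and viral capsids. Many PRY-SPRY members are induced by interferon in macrophages and act in antiviral defence, whereas Trim46, a class C-I member, is known from neurons, where it bundles microtubules in the early axon.

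Messenger RNA was sequenced from bone marrow-derived macrophages of Zmat1 knockout (KO) mice and their wild type (WT) littermates, bred from heterozygous parents on the C57BL/6 background. All cells received the growth factor M-CSF, and RANKL, the cytokine that drives macrophages to become bone-resorbing osteoclasts, was given for 0, 1 or 3 days. The groups were thus KO and WT at day 0 (M-CSF alone), day 1 and day 3 (M-CSF with RANKL), with 3 libraries in each. Zmat1 itself was counted in every library, with 49 to 99 counts in those labelled KO and 32 to 91 in those labelled WT, so KO and WT below are the labels of the libraries.

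Total counts per library ran from 13789775 to 17559958, and TRIM members took 0.148% to 0.237% of them. Levels across libraries are CPM, read counts scaled to a common library size, and fold changes and adjusted p-values are from the edgeR quasi-likelihood test, adjusted by Benjamini-Hochberg over the 14241 genes tested. Calls below are at an adjusted p under 0.05. The titles of 5 libraries carry a double hyphen. They were WT day 0 number 1, KO day 0 number 2, KO day 1 numbers 1 and 2, and, since WT day 1 has the number 1 on a pair of libraries, 1 of that pair.

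Macrophage markers were high on day 0 and osteoclast markers on day 3. The summed level of 8 macrophage markers was 28924 to 59505 CPM on day 0 and 6174 to 17117 CPM on day 3, and that of 10 osteoclast markers rose from 224 to 988 CPM on day 0 to 8293 to 23380.5 CPM on day 3, with Calcr at 0 before day 3. Markers of stromal cells or osteoblasts were also present. Their summed level over 12 genes was 113 to 5045 CPM on day 0, 323 to 8948.5 CPM on day 1, 11562 to 14933 CPM on day 3 in WT and 20691 to 30417 CPM on day 3 in KO, and none of the 12 was at 0 in any group. In such mixed cultures fewer cells of a type and less RNA per cell cannot be told apart.

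Compared per length with the deposited FPKM values, the most abundant members over the 6 groups were Trim8, Trim30a, Trim25, Trim35, Trim28 and Trim41. Trim8, a regulator of cytokine signalling without a further C-terminal domain, had a mean of 40.4 FPKM and changed little between groups, from 36.2 FPKM in WT day 0 to 49.3 FPKM in WT day 3. Trim30a and Trim25, both interferon-inducible PRY-SPRY members, had means of 39 and 38.6 FPKM. Trim25 is the ligase that acts on the viral RNA sensor RIG-I. Trim30a led the family in both day 0 groups, at 61.2 FPKM in WT and 47.3 FPKM in KO, and fell to ranks 6 and 8 by day 3. By day 3 the leading members were Trim8 in WT and Trim35 in KO. These places depended on the lengths used. With exon lengths from the GENCODE vM21 annotation, Trim28 had rank 1 in both day 3 groups, Trim35 rank 2 and Trim8 rank 3. By mean over the groups Trim30a then had rank 1 and Trim8 rank 4. Trim46 was one of the weakest members, with a mean of 0.438 FPKM and rank 37 of 45.

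Trim46 (ENSMUSG00000042766) lies on the minus strand of chromosome 3, chr3:89234177-89246309 in GRCm38. Its exons in the GENCODE vM21 annotation share 239 bases (6.30% of its exon length) with Krtcap2 on the opposite strand, and the sources used here do not state whether reads were counted by strand. None of its 3835 distinct 50-base words occurs in transcripts of another gene. The most upstream RefSeq start of Trim46 lies inside the span given above, so the stretch just before it is within that span too. This stretch is shown because the study asked how Zmat1 acts on the transcription of Trim46. It is the 60 bases up to that start, chr3:89245898-89245957 in GRCm38.p6, minus strand, and holds no match to the interferon element described below:
Trim46: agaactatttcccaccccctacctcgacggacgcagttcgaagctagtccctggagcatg

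Trim46 measured 0.247, 0.0774 and 1.22 CPM in WT day 0, 0.333, 0.782 and 0.896 CPM in WT day 1, and 2.63, 3.18 and 2.47 CPM in WT day 3. In the libraries labelled KO it measured 0.642, 0.461 and 1.31 CPM on day 0, 1.92, 0.931 and 1.25 CPM on day 1, and 6.08, 5.44 and 6.46 CPM on day 3. The day 3 libraries were the highest under both labels and did not overlap the earlier days. From day 0 to day 3 Trim46 rose by a log2 fold change of 2.38 in WT (SE 0.641, adjusted p = 0.00702) and of 2.88 in KO (SE 0.626, adjusted p = 0.00251). The WT value rested in part on WT day 0 number 3, the highest of its group, and was 4.06 without it. By group mean ± SD (n = 3) the order was KO day 3 (5.99 ± 0.512 CPM), WT day 3 (2.76 ± 0.370 CPM), KO day 1 (1.37 ± 0.506 CPM), KO day 0 (0.805 ± 0.447 CPM), WT day 1 (0.670 ± 0.297 CPM) and WT day 0 (0.513 ± 0.614 CPM). Libraries of neighbouring groups overlapped from KO day 1 downwards, and the top 2 groups overlapped neither each other nor the rest.

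**Figure D1:**
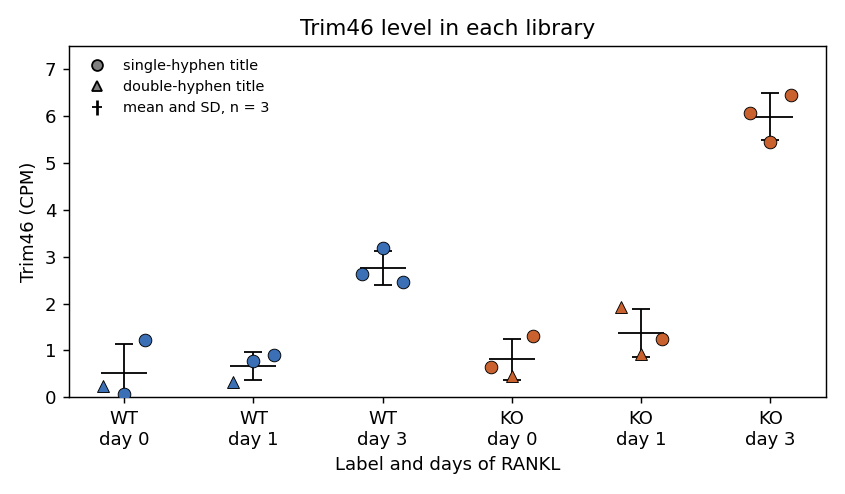
Level of Trim46 in CPM (vertical axis, linear) in each of 18 libraries, by label and days of RANKL (horizontal axis). Points are libraries, triangles those with double-hyphen titles, and bars are the mean and SD of 3 libraries. The 3 KO day 3 libraries lie between 5.44 and 6.46 CPM and the 3 WT day 3 libraries between 2.47 and 3.18 CPM.

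Within the family Trim46 stood at rank 41 of 45 per length in WT day 0, 41 in WT day 1 and 36 in WT day 3. In KO it stood at ranks 40, 40 and 31. On day 3 it still stood at 0.643 FPKM in WT day 3 and 1.35 FPKM in KO day 3, against 45.2 and 46.4 FPKM for Trim35. With lengths taken from the exons of GENCODE vM21 in place of those behind the FPKM values, the mean rank was again 37 of 45 and the KO day 3 rank was 30.

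The members whose log2 CPM followed that of Trim46 most closely over the 18 libraries were Trim2 (r = 0.92), Trim35 (0.84), Trim45 (0.81), Trim54 (0.76) and Trim59 (0.75). These are descriptions over libraries that share the days of RANKL. The summed level of the stromal or osteoblast markers followed Trim46 about as closely (r = 0.91 over the same libraries) and followed Trim2 more closely (r = 0.97), beside 0.87 and 0.81 for the muscle markers and 0.81 and 0.70 for the osteoclast markers. Within WT day 0 the library with the most Trim46, number 3, held 5045 CPM of stromal markers, against 113 and 591 CPM in numbers 1 and 2. On day 3 the stromal markers were also higher in every KO library than in every WT library. The part of these cells in the level of Trim46 was not tested.

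The study took up Trim46 partly because its messenger RNA was higher in Zmat1-deficient cells, so its difference between the labels is given as a description. On day 3 the 3 KO libraries lay above the 3 WT libraries, with a log2 fold change of 1.12 (SE 0.570). On day 1 the libraries did not overlap either (1.01, SE 0.627), and on day 0 they did (0.62, SE 0.663). The nearest libraries on day 1 stood at 0.931 CPM in KO and 0.896 CPM in WT, with 13 counts in each. Libraries of the labels did not overlap in 29.2% of all genes tested on day 3 and in 12.6% on day 1. Over the 3 days together the log2 fold change was 0.91 (SE 0.359), which became 1.46 without WT day 0 number 3. In the fit over all 18 libraries Trim46 was called in none of these comparisons. On day 3 it was also not among the members with an unadjusted p under 0.05.

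Trim46 lay among genes that differed between the labels. Over the mean of the 3 days, 1.59% of all genes tested were called between KO and WT. Of the 126 other tested genes that lay within 5 Mb of Trim46, 14 were called (11.1%), 12 of them higher in KO. This was the highest share around any of the 43 members, whose median was 1.08%. Next came Trim2, also on chromosome 3 (9 of 92 genes, 9.78%), and the neighbours Trim41 and Trim7 on chromosome 11 (7 of 79 genes, 8.86%, for both). Trim46 and Trim2 share part of their windows, as Trim41 and Trim7 do almost in whole. The part of these surrounding genes in the difference of Trim46 was not tested.

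**Figure D2:**
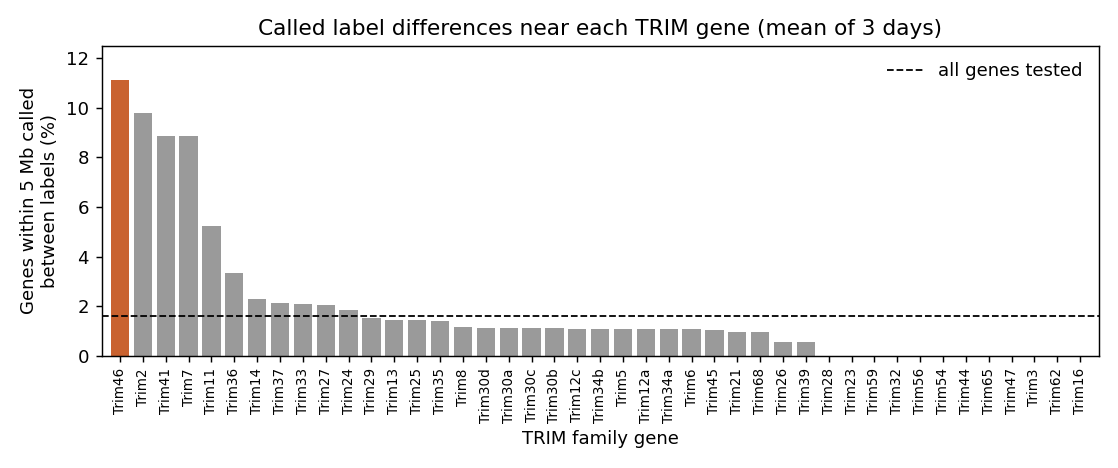
For each of 43 TRIM genes (horizontal axis), the percentage of tested genes within 5 Mb that were called between KO and WT over the mean of the 3 days (vertical axis). The dashed line is the 1.59% of all genes tested, and the bar of Trim46, in orange, reaches 11.1%.

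The class of Trim46 holds Mid1, Mid2, Trim9, Trim36 and Trim67, proteins that bind microtubules through a COS box. They did not follow it as a group. Trim36 measured 16.8, 9.60 and 4.08 CPM in WT day 0 and 4.75, 4.23 and 2.86 CPM in WT day 3, a log2 fold change of -1.36 that missed the threshold (adjusted p = 0.0533), and in KO the value was -1.30 (adjusted p = 0.0709). Its levels went with the titles of the libraries, at 18.5 CPM in the double-hyphen KO day 0 library against 5.13 and 6.77 CPM in the others. Trim9 had at most 14 counts in a library and Trim67 had 0 in all of them. Mid2, outside the symbol rule, rose by a log2 fold change of 1.97 in WT (adjusted p = 0.0357) and 1.98 in KO (adjusted p = 0.0378). Mid1, whose human counterpart is mutated in Opitz syndrome, had values of -0.21 and 0.87 (adjusted p = 0.821 and 0.337).

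Over the whole family, more members were lower than higher after 3 days of RANKL. In WT 23 of 43 members were lower on day 3 than on day 0 and 7 were higher, where 26.5% and 23.7% of all genes tested were called in these directions. In KO 16 were lower and 6 higher, against 22.3% and 20.2% of all genes. The median log2 fold change of the members was -0.52 in WT and -0.25 in KO, and that of all genes was -0.03 and -0.01. The summed level of all members went from 1995 to 2538 CPM on day 0 to 1364 to 1455 CPM on day 3. Under all alternatives that were run, 20 of the 30 WT calls and 21 of the 22 KO calls held. Both labels called 20 members, all in the same direction, which is 66.7% of the WT calls and 90.9% of the KO calls. Without overlap of the libraries, 23 members were lower and 10 higher in WT (31% and 31.5% of all genes), and 20 were lower and 10 higher in KO (29.4% of all genes each way).

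These counts depended on how libraries were scaled. With total counts in place of the TMM scaling, the median of all genes moved to 0.33 in WT and 0.29 in KO, and 15 members were lower and 14 higher in WT, with 16 lower and 11 higher in KO. The shares of all genes above belong to the TMM scaling and do not apply to these counts. No called member changed direction. The lower calls lost in WT were those of Trim3, Trim11, Trim23, Trim24, Trim26, Trim33, Trim39 and Trim56. Their values with total counts were all below 0, from -0.04 for Trim33 to -0.84 for Trim26.

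**Figure D3:**
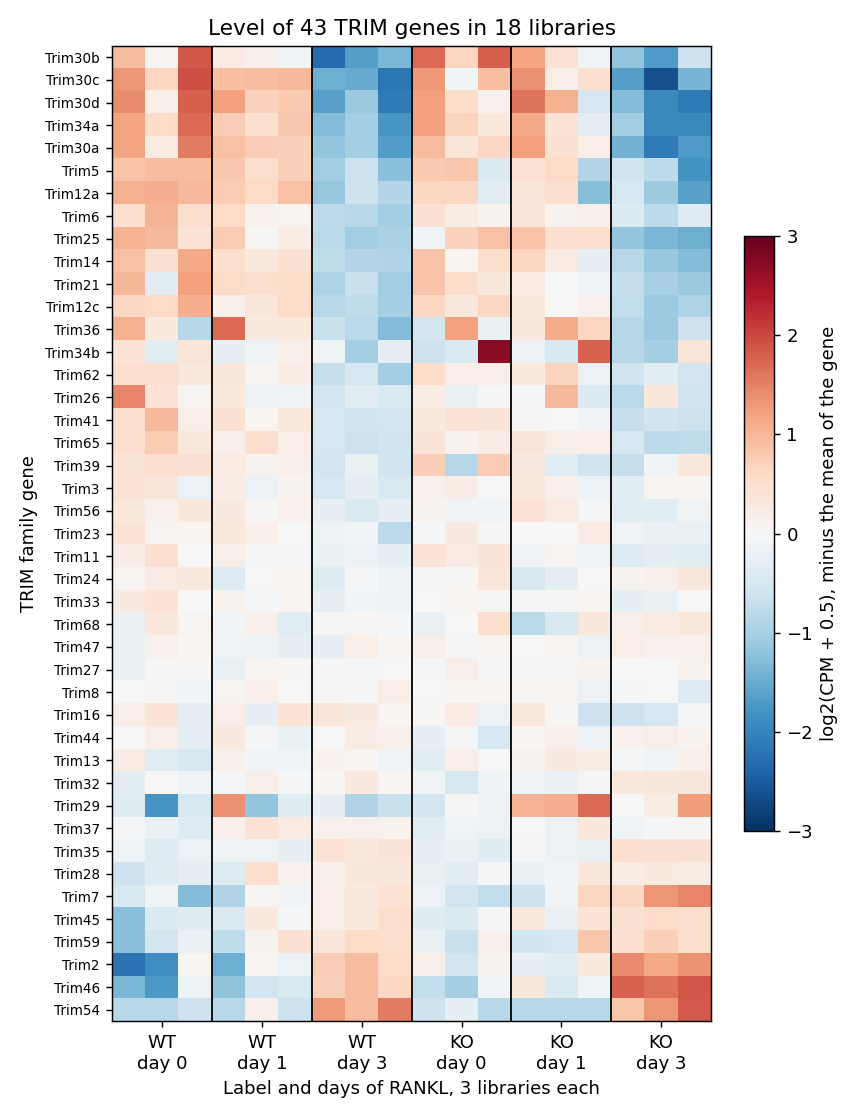
Level of 43 TRIM genes (rows, ordered by their log2 fold change from day 0 to day 3 in WT) in 18 libraries (columns, 3 per group). Colour gives log2(CPM + 0.5) minus the mean of the gene, from blue (lower) to red (higher). Rows at the top fell by day 3 under both labels and the rows of Trim46 and Trim54 at the bottom rose.

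The interferon-inducible TRIM genes carried most of the fall. Of 14 that could be tested on a list of 15, which held Pml beside 14 TRIM symbols, 13 were lower in WT on day 3, 12 were lower in KO and none was higher under either label. Of all genes tested, 26.5% were lower in WT and 22.3% in KO. The median log2 fold change of the 14 was -1.85 in WT and -1.75 in KO. The counts were the same with only the single-hyphen libraries, and 12 were lower under both labels with total counts. Trim34b was the tested gene that was lower in neither label. With the number in the title as a block within each label it was called in KO (log2 fold change -2.65, adjusted p = 0.0347). Without the block the value was -2.86 (adjusted p = 0.122) and ran from -5.80 without KO day 3 number 3 to 0.64 without KO day 0 number 3. The other was Trim56, which was lower in WT (log2 fold change -0.58, adjusted p = 0.00202, and -0.23, adjusted p = 0.156, in KO).

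Promoter stretches of 8 of these genes are shown because they fell together and share a short element. The interferon-stimulated response element is bound by interferon-activated factors and was searched as GAAANNGAA on either strand, which reads TTCNNTTTC when it lies on the other strand. RefSeq promoter windows of GRCm38.p6 (250 bases before to 50 after a start) were matched for 35 of the 45 members, and 12 of these held the element, among them 9 of the 12 matched genes of the interferon-inducible list. Of the 16 members lower on day 3 under both labels 13 had a window and 8 of those held it, against 4 of the 20 other tested members with a window and 9.76% of all 27025 symbols (8.56% of all 32851 windows). The 4 others were Trim2, Trim7, Trim26 and Trim34b. Of these, Trim2 and Trim7 had day 3 values above 0 under both labels. The lower members were picked from these same data, so the shares are a description. Capitals mark the element. The first 5 stretches are the 60 bases up to the start and the last 3 are 30-base sites just after it. They lie at chr7:104465194-104465253 (Trim30a), chr7:104507850-104507909 (Trim30d), chr7:104353350-104353409 (Trim12c) and chr7:104288107-104288166 (Trim5) on the minus strand and chr11:88999343-88999402 (Trim25) on the plus strand. The sites lie at chr7:104244458-104244487 (Trim34a, plus strand), chr7:104315465-104315494 (Trim12a, minus strand) and chr7:102565450-102565479 (Trim21, minus strand):
Trim30a: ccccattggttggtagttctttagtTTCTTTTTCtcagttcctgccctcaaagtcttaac
Trim30d: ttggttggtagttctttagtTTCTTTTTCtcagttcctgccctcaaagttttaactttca
Trim12c: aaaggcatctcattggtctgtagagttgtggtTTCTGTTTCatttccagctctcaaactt
Trim5: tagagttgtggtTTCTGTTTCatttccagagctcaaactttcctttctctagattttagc
Trim25: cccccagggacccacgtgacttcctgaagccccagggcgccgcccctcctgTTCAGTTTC
Trim34a: ggtttggagtTTCAGTTTCttttctctgca
Trim12a: gagttgtggtTTCTGTTTCatttccagagc
Trim21: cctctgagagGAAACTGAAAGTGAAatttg
Trim30a and Trim30d share most of their stretch, and Trim12c, Trim5 and Trim12a share another, so these are not separate occurrences. Trim21 holds a pair of overlapping matches on the strand of the gene.

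The Trim30 genes, restriction factors and regulators of inflammatory signalling particular to rodents, included the members with the largest falls, Trim30b, Trim30c and Trim30d. Trim30a measured 379, 195 and 478 CPM in WT day 0 and 74.1, 80.6 and 51.7 CPM in WT day 3 (log2 fold change -2.35, SE 0.332, adjusted p = 8.03e-05). In KO it went from 321, 213 and 257 CPM to 61.6, 37.6 and 50.9 CPM (-2.40, SE 0.333, adjusted p = 0.000125). No day 3 library reached a day 0 library under either label. Trim30b had the largest drop in WT, from 5.36, 2.71 and 10.4 CPM to 0.103, 0.470 and 0.673 CPM (-3.88, adjusted p = 0.000386), followed by Trim30c (-3.27, adjusted p = 0.000106) and Trim30d (-2.89, adjusted p = 0.000481). In KO the values of Trim30b, Trim30c and Trim30d were -3.09, -2.84 and -2.50, all called. Of the 50-base words of Trim30a 5.98% occur in other genes, all of them in Trim30d.

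The neighbouring PRY-SPRY genes Trim34a, Trim5, Trim12a and Trim12c, of which the last 3 are the mouse relatives of the retroviral restriction factor TRIM5, fell as well. Trim34a went from 87.5, 56.1 and 125 CPM to 15.2, 18.5 and 11 CPM in WT (-2.59, SE 0.399, adjusted p = 0.000156). In WT Trim5 fell by 1.95, Trim12a by 1.94 and Trim12c by 1.66 on the log2 scale, and in KO by 1.55, 1.42 and 1.46, all called. Their counts are uncertain where copies share sequence, since reads may be split between them. Of the 50-base words of Trim5 36.3% occur in another gene, as do 33.0% of Trim12c, 10.4% of Trim12a and 39.8% of Trim34a, and the last all lie in Trim34b.

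Elsewhere in the genome the interferon-inducible members moved the same way. Trim25 went from 416, 393 and 268 CPM to 115, 97.1 and 105 CPM in WT and from 191, 325 and 369 CPM to 90.2, 77.3 and 72.8 CPM in KO (log2 fold change -1.77 and -1.88, adjusted p = 7.77e-05 and 9.47e-05). Trim21, an antibody receptor of the cytosol, went from 58.7, 22.9 and 69.1 CPM to 15.1, 18 and 13.9 CPM in WT (-1.68, adjusted p = 0.000369) and changed by -1.55 in KO (adjusted p = 0.000983). Trim14, a mitochondrial adaptor of antiviral signalling that lacks a RING finger, went from 89.9, 67.5 and 108 CPM to 28.6, 26.3 and 26.1 CPM in WT (-1.71, adjusted p = 7.15e-05). Its value in KO was -1.62 (adjusted p = 0.000182). The exons of Trim14 share 1356 bases with Nans on the opposite strand, 31.3% of their length. Pml, the organiser of nuclear bodies, changed by -1.51 in WT (adjusted p = 0.00177) and -1.28 in KO (adjusted p = 0.00669).

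Other interferon response genes fell with them. All 12 on a list of such genes without TRIM members were lower on day 3 under both labels, with median log2 fold changes of -3.21 in WT and -3.35 in KO. Their summed level was 1479 to 6189 CPM in WT day 0 and 425 to 663 CPM in WT day 3, and 1911 to 3588 CPM in KO day 0 and 306 to 580 CPM in KO day 3. Across the 18 libraries the log2 level of Trim30a followed this sum with r = 0.99. Within WT day 0 the library lowest in the sum, number 2 with 1479 CPM, was also the lowest in Trim30a and Trim21, and number 3, the highest in the sum, was the highest in both. Macrophage markers fell over the same days (7 of 8 lower under both labels), and so did neutrophil markers (8 of 8 under both), whose summed level went from 662 to 3012 CPM on day 0 to 35.8 to 66.9 CPM on day 3 in WT and from 3650 to 11714 CPM to 97.6 to 1147 CPM in KO. The part of the cell mixture in the fall of the TRIM genes was not tested.

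**Figure D4:**
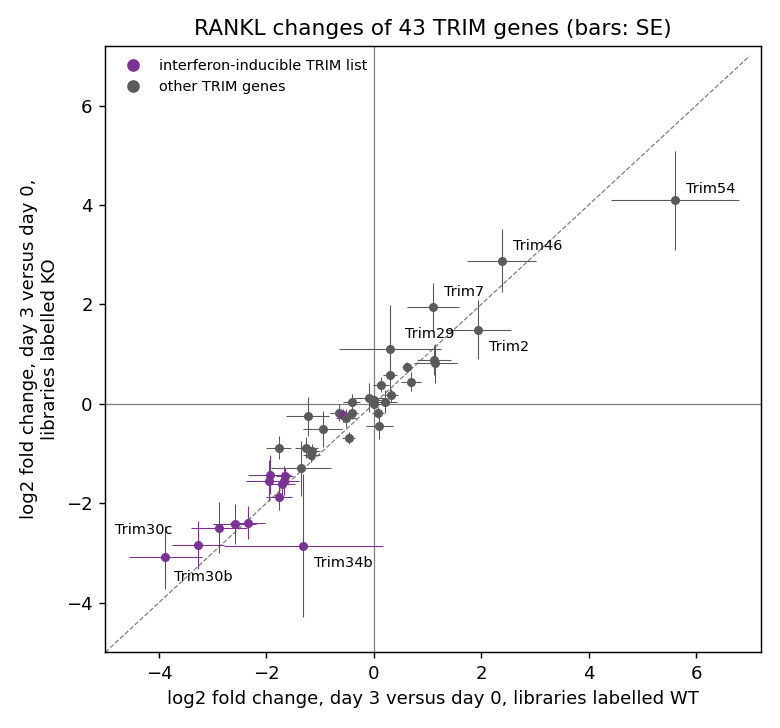
Log2 fold changes of 43 TRIM genes from day 0 to day 3 of RANKL in libraries labelled WT (horizontal axis) and KO (vertical axis), with bars of 1 SE. The dashed line marks equal values. The genes of the interferon-inducible list, in purple, lie below 0 on both axes, down to -3.88 and -3.09 for Trim30b.

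Chromosome 7 holds 15 of the 45 members. From Trim6 to Trim30d, 10 of them lie in a row between positions 104218793 and 104507849 of GRCm38. In this row the library numbered 3 of KO was the lowest or the highest of its group on every day in several genes. Trim12a measured 39.9, 38.7 and 20.02 CPM in KO day 0, 32.3, 35.6 and 10.1 CPM in KO day 1, and 17.2, 11.7 and 7.82 CPM in KO day 3, in the order of the numbers 1 to 3. Trim5 measured 17.6, 17.9 and 7.43 CPM, then 13.8, 15.5 and 5.22 CPM, then 6.49, 5.63 and 2.55 CPM. In both genes number 3 was the lowest of its group each day.

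Trim34b went the other way. Its KO libraries numbered 3 held 83, 42 and 14 counts on days 0, 1 and 3 (6.04, 2.92 and 0.793 CPM), whereas no other library held more than 11 counts. In the deposited positions Trim34b (104300230-104336909) overlaps Trim12a (104299894-104315466) on the opposite strand. Trim34a (104244457-104340693) spans Trim5, Trim12a and Trim34b. Whether reads were counted by strand is not stated in the sources used here. Trim6, at one end of the row, measured 5.99, 5.08 and 4.59 CPM in KO day 0 and 3.10, 2.26 and 3.12 CPM in KO day 3, with no such split. Trim34b shares 56.8% of its 50-base words with Trim34a, which was lowest in number 3 on all 3 days (47.7, 31.0 and 9.52 CPM), as was Trim30d (48, 31.0 and 9.74 CPM). In WT the numbers did not set Trim12a, Trim5 or Trim34b apart in this way. These values were singled out after they were seen, and they were not tested.

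**Figure D5:**
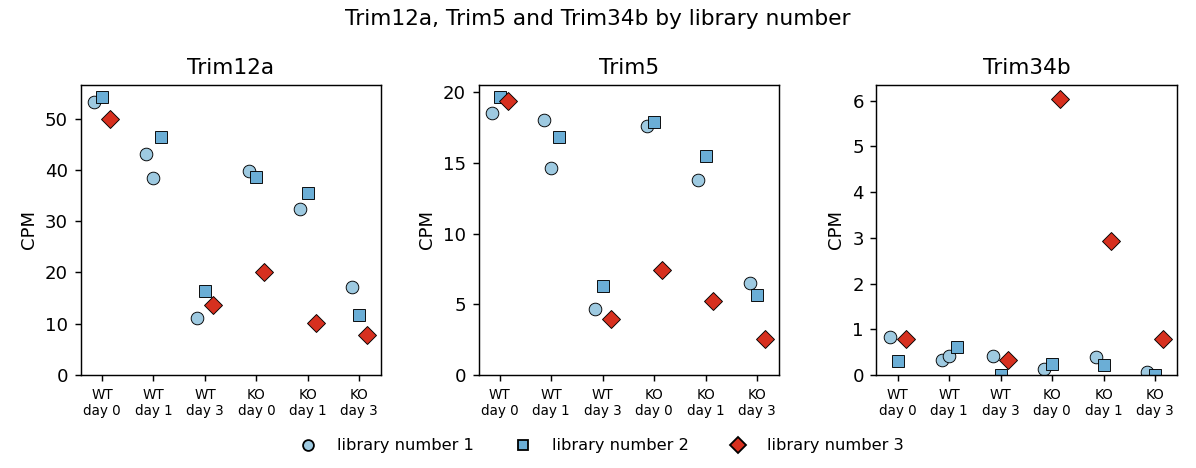
Level in CPM (vertical axes, linear) of Trim12a, Trim5 and Trim34b in each library, by label and days of RANKL (horizontal axes). Markers give the number in the library title, and the red diamonds of KO number 3 lie lowest in Trim12a and Trim5 and highest in Trim34b on each day.

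Of the PRY-SPRY class as a whole, 17 of 23 tested members were lower in WT and 1 was higher. In KO 15 were lower and 2 higher. Of all genes tested, 26.5% were lower and 23.7% higher in WT, and 22.3% and 20.2% in KO. With total counts, where these shares do not apply, 14 of the class were lower and 3 higher in WT, and 15 and 3 in KO. The class includes members of the interferon-inducible list already counted above. Beyond the interferon-inducible list the lower members included Trim6, from 6.18, 9.21 and 6.22 CPM to 2.27, 2.18 and 1.85 CPM in WT (log2 fold change -1.77, SE 0.239, adjusted p = 5.78e-05) and by -0.88 in KO (adjusted p = 0.00833). Trim62 and Trim65 fell by 1.25 and 1.15 on the log2 scale in WT and by 0.88 and 0.95 in KO, all called. Trim41 measured 121, 166 and 96.7 CPM in WT day 0 and 58.7, 55.5 and 57.4 CPM in WT day 3 (-1.16, adjusted p = 5.12e-05), and in KO its value was -1.03 (adjusted p = 0.000206). Trim26 was called in WT (-1.23, adjusted p = 0.0187), where the double-hyphen library stood at 127 CPM against 60.8 and 48.2 CPM, and without that library the value was -0.67 (adjusted p = 0.157). Trim27, Trim47 and Trim68 of the same class had values between -0.09 and 0.12 that were called under neither label.

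Trim35 was the exception among abundant PRY-SPRY members. It measured 124, 104 and 121 CPM in WT day 0 and 184, 171 and 179 CPM in WT day 3 (log2 fold change 0.61, SE 0.0924, adjusted p = 0.000128). In KO it went from 115, 118 and 106 CPM to 191, 186 and 189 CPM (0.74, SE 0.0925, adjusted p = 6.48e-05). The libraries within each group lay close together. By the FPKM values Trim35 became the most abundant member in KO day 3, and with exon lengths from GENCODE it had rank 2 there, behind Trim28. Trim7, which acts on AP-1 signalling and on glycogenin, was higher in KO (1.94, adjusted p = 0.00543), at 3.57, 6.12 and 6.74 CPM on day 3 against 1.85, 1.31 and 1.09 CPM on day 0. In WT its value was 1.10 (adjusted p = 0.0680), and the difference between the labels was 0.84 (adjusted p = 0.927).

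Among the other classes, Trim54, a muscle member that binds microtubules, appeared with RANKL. It had 0, 0 and 1 counts in WT day 0 and 32, 20 and 37 counts in WT day 3, and 1, 3 and 0 counts in KO day 0 and 18, 28 and 47 counts in KO day 3. Day 3 was thus 64.1 times day 0 in WT (95% exact interval of counting 11.2 to 2560) and 18.7 times in KO (7.05 to 69.9), intervals that cover counting error only. Both changes were called (adjusted p = 0.00211 and 0.00630). Trim54, with 196 counts in all, met the minimum sum and the filter on low counts only through its day 3 libraries. Its calls, counted above among the higher members of both labels, are therefore not independent of how members were selected. The summed level of 6 muscle markers was 1.08 to 3.36 CPM on day 0 and 4.08 to 17.1 CPM on day 3, with Myog and Myod1 at 0 in both day 3 groups. An antisense gene shares 26.6% of the exon length of Trim54.

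Trim2, an NHL-domain ligase studied in neurons, measured 0.495, 0.774 and 4.36 CPM in WT day 0 and 7.28, 8.35 and 6.40 CPM in WT day 3 (log2 fold change 1.95, SE 0.613, adjusted p = 0.0168). The call was lost without WT day 0 number 1 or number 2 and with only the groups compared, and the value was 3.54 without number 3. In KO Trim2 went from 4.71, 2.61 and 4.51 CPM to 12.0, 9.91 and 11.4 CPM, where the value of 1.49 missed the threshold (adjusted p = 0.0549). It passed with the number as a block within KO (1.52, adjusted p = 0.0484) or over all libraries (adjusted p = 0.0454). It also passed by DESeq2 (0.0240), with only the groups compared (0.00522), a stricter filter (0.0483) and total counts (0.0398). The fits that left out a library did not call it. The libraries of day 3 lay above those of day 0 under both labels. Trim45, a filamin-domain member, was called in WT (1.12, adjusted p = 0.00831) and KO (0.88, adjusted p = 0.0314), and the KO call was lost in 5 of the 6 fits that left out a library of the groups compared, with an adjusted p of up to 0.0872. Trim59, a transmembrane member, was called in WT (1.15, adjusted p = 0.0278), and the call was lost in 4 of 6 such fits. In KO its value of 0.81 missed the threshold (adjusted p = 0.111), and it was called with the single-hyphen libraries (0.67, adjusted p = 0.0183), with the title style as a covariate (0.49, adjusted p = 0.0394) and with only the groups compared (0.81, adjusted p = 0.0274). Trim28, the co-repressor that silences retroelements with zinc finger proteins, was called in WT (0.69, adjusted p = 0.00784). It measured 102, 120 and 129 CPM on day 0 and 174, 198 and 196 CPM on day 3 there. Its value in KO was 0.45 (adjusted p = 0.0696), which passed the threshold with the single-hyphen libraries (0.44, adjusted p = 0.0219). It also passed by DESeq2 (0.0359), with only the groups compared (0.0156), a stricter filter (0.0494) and total counts (0.0341). Trim32, an NHL-domain ligase of muscle, was called in KO (0.59, adjusted p = 0.00280). Its WT value of 0.30 missed the threshold (adjusted p = 0.0674) and passed it under 5 alternatives, with an adjusted p of 0.0258 by DESeq2.

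The co-regulators Trim24 and Trim33, which read histone marks through PHD and bromodomains, were lower in WT by 0.41 each on the log2 scale (adjusted p = 0.0473 and 0.00701) and had KO values of 0.04 and -0.19 that were not called. The WT call of Trim24 was lost in each of the 6 fits without a library (adjusted p = 0.0525 to 0.163) and that of Trim33 without WT day 0 number 2 (adjusted p = 0.0609). Trim8 had values of 0.08 in WT and -0.18 in KO (adjusted p = 0.563 and 0.201), and with total counts it was called in WT (0.45, adjusted p = 0.0120).

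After 1 day of RANKL no member was called under either label, where 2.35% of all genes were called in WT and 0.0211% in KO. At an unadjusted p under 0.05 there were 4 members in WT and 5 in KO. Of all 14241 genes tested, 1652 were higher and 1262 lower at that level in WT, and 589 and 867 in KO. The smallest adjusted p in WT was that of Trim37, a peroxisomal and centrosomal ligase (log2 fold change 0.48, adjusted p = 0.0719), which measured 27.4, 24.4 and 21.4 CPM on day 0 and 30.9, 37.8 and 33.3 CPM on day 1. In KO the smallest was that of Trim11 (-0.40, adjusted p = 0.280). The DESeq2 Wald test called Trim37 alone in WT and no member in KO. With only the single-hyphen libraries 2 members were called in WT, Trim28 (0.66, adjusted p = 0.0292) and Trim37 (0.64, adjusted p = 0.0245). Of the 14 interferon-inducible genes none was called at this time under either label, with median log2 fold changes of -0.42 in WT and -0.26 in KO. Trim30a stood at 305, 277 and 275 CPM in WT day 1, within the range of its day 0 libraries.

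Between the labels no member was called on day 0, day 1 or day 3 or over the mean of the days, where 0.119%, 0.112%, 0.14% and 1.59% of all genes were called. At an unadjusted p under 0.05 there were 1, 1, 2 and 4 members. Of all 14241 genes tested, 532 were higher and 549 lower at that level on day 0, and 553 and 572 on day 1. On day 3 there were 975 and 546, and over the mean of the days 1567 and 1055. DESeq2 called none in these comparisons. The difference of the RANKL response between the labels was called for no member and for 0% of all genes with edgeR. DESeq2 called no member. At an unadjusted p under 0.05 with edgeR, 411 of all genes were higher, 358 were lower, and 1 member passed. That member was Trim6, whose fall was 0.89 smaller on the log2 scale in KO (SE 0.331, adjusted p = 0.910). Trim24 and Trim56 came next, with differences of 0.45 and 0.35 (adjusted p = 0.911 and 0.920).

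On day 3 the KO libraries did not overlap the WT libraries in 13 members, of which 8 were higher and 5 lower in KO, where 15.9% and 13.3% of all genes did so. The smallest unadjusted p values there belonged to Trim16, a galectin-binding member of damaged membranes (19.0, 17.8 and 15.3 CPM in WT, 9.29, 10.1 and 13.9 CPM in KO, log2 fold change -0.64, adjusted p = 0.404), Trim24 (0.40, adjusted p = 0.415) and Trim7 (0.97, adjusted p = 0.470). On day 0 they belonged to Trim56, Trim65 and Trim26, with values of -0.28, -0.29 and -0.80 (adjusted p = 0.648, 0.655 and 0.662). On day 1 they belonged to Trim54, Trim41 and Trim12a. Trim54 then had 0 counts in all 3 KO libraries and 0, 8 and 1 counts in WT, too few for a fold change, and the values of Trim41 and Trim12a were -0.31 and -0.71 (adjusted p = 0.642 and 0.665). Over the mean of the days Trim29, a RING-less member, had a value of 1.25 (adjusted p = 0.210) and Trim41 one of -0.21 (adjusted p = 0.216). Trim41, with Trim7, lies in one of the stretches where other genes differed between the labels.

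The double-hyphen libraries differed from the single-hyphen libraries in 8 of 43 members when the style of the title was fitted beside the groups, against 23.2% of all genes. Trim59 (log2 difference -1.04, adjusted p = 0.000293), Trim2 (-1.26, adjusted p = 0.0219), Trim45, Trim28, Trim24 and Trim32 were lower in the double-hyphen libraries, and Trim36 (1.12, adjusted p = 0.00773) and Trim44 were higher. No interferon-inducible member was among them. With only the single-hyphen libraries, 19 members were lower and 8 higher on day 3 in WT and 17 were lower and 9 higher in KO. The shares of all genes called in that fit are not given here. In WT the calls of Trim3, Trim23, Trim26 and Trim33 were then lost and Trim37 was called (0.47, adjusted p = 0.00893), and in KO Trim28, Trim39, Trim44 and Trim59 were called. Trim46 then rose by 2.13 in WT and 2.66 in KO (adjusted p = 0.0255 and 0.0101).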

How the data were processed

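RNA was extracted from 18 macrophage cultures with a column kit and sequenced from SMARTer messenger RNA libraries. The authors deposited 1 table with whole-number read counts and FPKM values for 34745 genes, the latter made with StringTie and Ballgown per the study's methods. The submitters' processing notes name the builds GRCm38.p4 and mm10. The aligner and the counting program are not given in the sources used here. Each deposited FPKM value equals its count divided by the column total and a fixed length per gene.

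Counts were fitted in R 4.3.3 with edgeR 4.0.16 (filterByExpr, TMM scaling, glmQLFit, glmQLFTest) over all 18 libraries as 6 groups, with contrasts between days and labels. CPM used TMM-scaled sizes of the genes kept, and log2 CPM a prior count of 2. P-values are 2-sided. DESeq2 1.42.0 was an alternative, as were other filters and scalings, the number in the title as a block, the title style as a covariate, and each library left out. Total counts in place of TMM and the fit without double-hyphen libraries, and exon lengths from GENCODE in place of those behind the FPKM values, were added after the data were seen. The fit was tested on simulated data. The members, lists and alternatives were chosen with earlier results of these data known. Named members were Trim46 and its class, the largest called changes on day 3 in WT, the 3 smallest p-values of each label comparison and of the interaction, the 6 highest mean FPKM values and the 5 closest to Trim46. Others were named after their values were seen.

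The labels do not say which libraries share an animal, so p-values measure the spread between these libraries, which may be technical. How far libraries with the same number deviated together is given as r, for numbers 1 to 3. Between days 0 and 3 it was 0.130, 0.135 and 0.398 in KO and 0.111, -0.023 and 0.051 in WT. KO number 3 stood apart there, while KO numbers 1 and 2 lay close to WT number 1. Between days 0 and 1 it was 0.054, 0.501 and 0.598 in KO. In WT it was 0.138 for number 2. WT day 0 number 1 gave 0.604 with the double-hyphen day 1 library and -0.464 with the single-hyphen library of that number. Replicate pairs differed beyond counting noise, with a chi-square of at least 18.9 per degree of freedom. Positions are those of the table (GRCm38). Promoter windows were taken from RefSeq (GRCm38.p6), and 50-base words from GENCODE vM21 transcripts. Protein sequences were not analysed here. The result of 1 further gene list is not reported here.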

Additional observations from a re-analysis of the deposited data

How the results depend on the processing

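The day 3 counts of called members stayed within 1.5 times under all alternatives that were run, from 25 to 33 in WT and from 21 to 27 in KO, and leaving out a library gave 25 to 29 and 21 to 23. The shares of all genes called under the alternatives are not given here. Trim46 kept its day 3 call in all 16 alternatives under each label, with the highest adjusted p at 0.0492 in WT (only the groups compared) and 0.0136 in KO. With the number in the title as a block it rose by 2.60 in WT and 2.97 in KO, and the fit with that block within each label gave 2.73 and 2.95. That fit called 24 members on day 3 in KO, adding Trim2 and Trim34b, and 30 in WT, where it added Trim36 and lost Trim39. It changed no other day 3 call. The day 3 calls lost under at least 1 alternative were those of Trim2, Trim3, Trim11, Trim23, Trim24, Trim26, Trim33, Trim39, Trim56 and Trim59 in WT. In KO that of Trim45 was lost. Calls were gained under at least 1 alternative by Trim7, Trim8, Trim13, Trim32, Trim36, Trim37, Trim44 and Trim47 in WT. In KO they were gained by Trim2, Trim28, Trim34b, Trim36, Trim37, Trim39, Trim44, Trim47 and Trim59. On day 1 in WT the count was 1 with DESeq2, 3 with the title style as a covariate (Trim28, Trim37 and Trim59) and 2 with the single-hyphen libraries, and 0 to 2 without 1 library. The day 1 value of Trim46 in WT ran from -0.12 (without WT day 0 number 2) to 2.03. Over the mean of the 3 days, 1 member (Trim2, 0.90) was called between the labels with the title style as a covariate, and 0 to 3 without 1 library, up to 3 without WT day 0 number 3 (Trim46, Trim41 and Trim2). Trim46 then ran from 0.74 to 1.46. On day 0 the count was 0 to 1 without 1 library, with Trim2 called without WT day 0 number 3. The label by day difference of Trim46 ran from -1.16, without WT day 0 number 3, to 1.04. The cause of these changes was not tested. Low counts limit Trim46, which had 1 to 18 counts in each day 0 library.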
